A study of Mus musculus with 8 samples.

Results

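The collagens and matrix genes described here are 10 genes of the connective tissue of the mammary gland, measured in cells that were sorted as macrophages. They were Col1a1, Col1a2, Col3a1, Col6a1, Dcn, Lum, Dpt, Pdgfra, Sparc and Postn, out of 18193 genes that had a probe set of their own on the arrays. For each gene the probe set with the highest mean signal over the 8 arrays was used. All 10 passed the filter on low signals, as did 13083 genes in all, and each of the 10 lay above the median of its array on all 8 arrays.

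The arrays carried RNA from Cd11b-PE sorted cells of mammary glands that had been dissociated with collagenase. Transgenic mice carried MMTV-iFGFR1, an inducible fibroblast growth factor receptor 1 driven by the promoter of mouse mammary tumour virus, a promoter used for mammary epithelium, and controls were littermates without the transgene. All mice were inbred FVB females, 6 weeks old when treatment began, and all, controls included, received the dimerizer that activates the receptor. Treatment lasted 48 hours or 4 weeks, so that each genotype was measured after each duration, with 2 arrays in each of the 4 groups. Each array held RNA pooled from 3 mice, so a p-value measures the spread between pools and not between mice. The labels do not say what a shared pool number marks. The description of transgenic 4 weeks pool 2 names non-transgenic mice, against its title, source name and genotype, and the array was used as transgenic.

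Fibroblasts secrete the fibrous matrix that holds the epithelial ducts of the gland in place. Type I and type III collagen assemble into banded fibrils, small leucine-rich proteoglycans such as decorin and lumican coat those fibrils and set their spacing, and type VI collagen forms fine beaded filaments around cells. Fibroblasts do not carry Cd11b, and these genes are textbook markers of fibroblasts and not of macrophages, although macrophages can express Sparc and some collagen genes at low levels. In bulk RNA of a sorted fraction, fewer cells of a type and less RNA per cell cannot be told apart.

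Markers of the macrophage sort could be read on the same arrays. The signal of Csf1r, which encodes the colony-stimulating factor 1 receptor, lay between 68311 and 93065. That of Adgre1, an adhesion receptor typical of macrophages of the mouse, lay between 9842 and 14627, and that of Itgam, which encodes Cd11b, between 46.8 and 545. The lowest Itgam signal, on control 4 weeks pool 2, was below that array's median of 122.1. The mean signals of Dcn (23415), Col3a1 (22370) and Col1a2 (14555) over the 8 arrays were above that of Adgre1 (12703). Fgfr1 gave 581 to 1853, and since the transgene is driven in epithelium this is no check of the genotype. The 3' to 5' ratio of the beta-actin control, a reading of how far the RNA had been shortened, lay between 6.84 and 13.9 on 7 arrays and reached 37.0 on the remaining one, control 4 weeks pool 2.

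With the probe sets used, all 10 genes had their lowest signal on the same array, control 48 hours pool 1. The second probe sets of Col1a1, Col1a2, Col3a1 and Sparc were lowest on control 4 weeks pool 2, and that of Pdgfra on transgenic 48 hours pool 2. Control 48 hours pool 1 held the lowest signal of 19.3% of all genes tested. Among the 3420 genes with a mean signal at least as high as that of the dimmest of the 10, the share was 26.0%. The highest signal was spread over more arrays. Col1a1, Col1a2, Col3a1 and Postn were highest on control 48 hours pool 2, which is the other pool of the same group. Col6a1 and Sparc were highest on transgenic 48 hours pool 2, Dcn on control 4 weeks pool 1, Dpt and Pdgfra on transgenic 4 weeks pool 1, and Lum on transgenic 4 weeks pool 2. The ratio of the highest to the lowest array ran from 2.47 for Dpt to 3.68 for Sparc. The values below are linear MAS5 signals, with pool 1 given before pool 2.

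**Figure D1:**
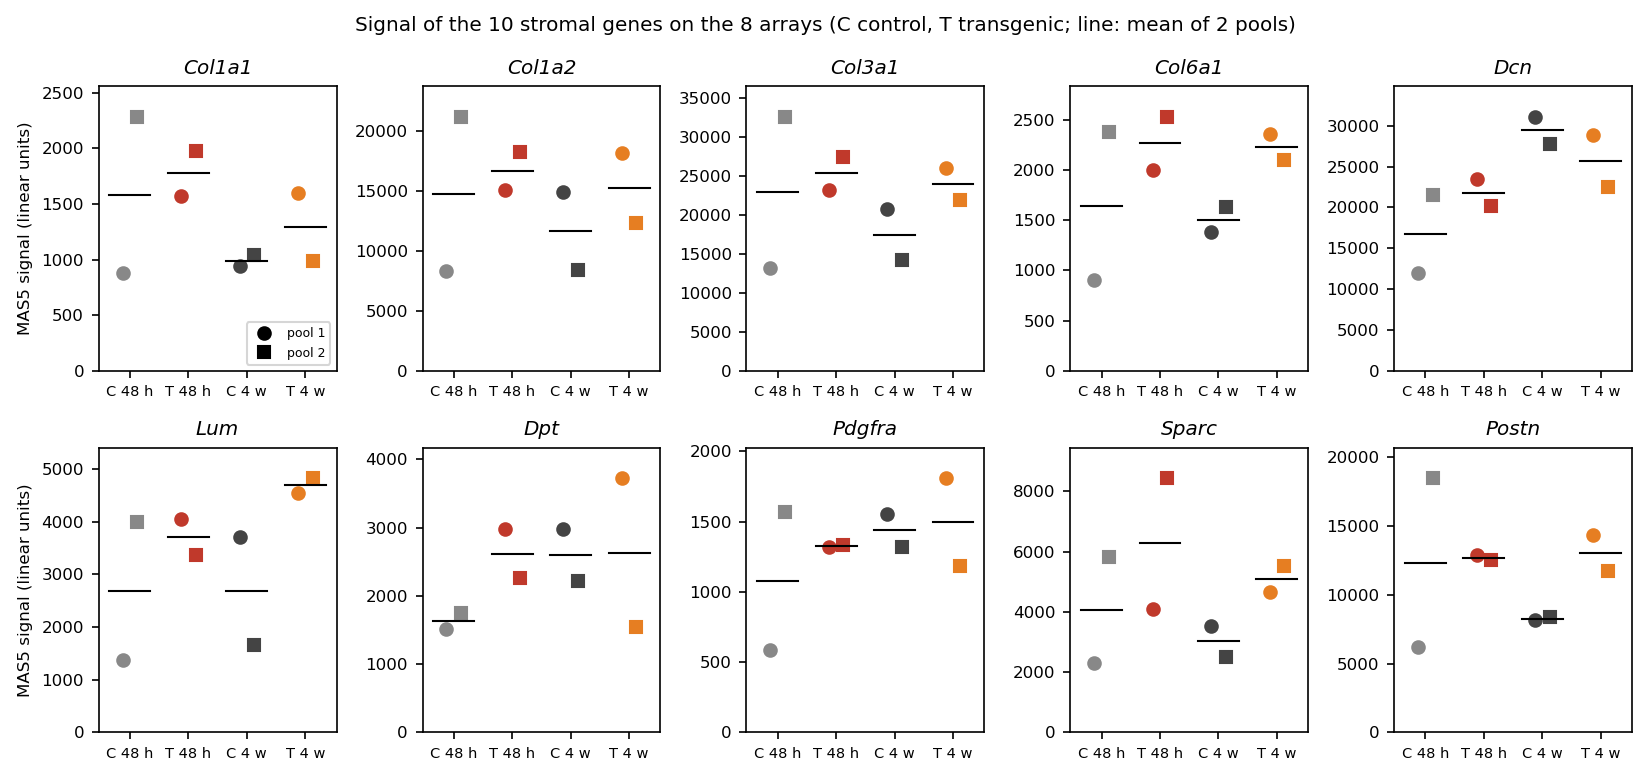
Linear MAS5 signal of the used probe set of each of the 10 genes (y axis, from 0) in the 4 groups (x axis). Circles mark pool 1, squares pool 2 and a line the mean of the 2 pools. In every panel the circle of the control 48 hours group is the lowest point, and in 8 of 10 panels the 2 points of that group lie more than 1 log2 unit apart.

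Among the fibril-forming collagens, Col3a1, the single chain of type III collagen (GRCm38.p6, chr1:45311538-45349706), gave 13129.8 and 32564.5 in the control pools at 48 hours, 23176 and 27376.5 in the transgenic pools at 48 hours, 20727 and 14138 in the control pools at 4 weeks, and 26005 and 21842 in the transgenic pools at 4 weeks. The transgenic pools lay between the control pools at 48 hours and above both at 4 weeks. Col1a2, the alpha 2 chain of type I collagen (chr6:4505618-4541543), gave 8274 and 21167, 15056 and 18218, 14905 and 8371.5, and 18160.5 and 12291 in the same order of groups. The groups overlapped at both times, and control 4 weeks pool 2 was nearly as low as control 48 hours pool 1. Col1a1, the alpha 1 chain of the same trimer (chr11:94936224-94953042), gave 879 and 2287, 1573 and 1981, 939 and 1041, and 1597 and 989. Both transgenic pools lay within the range of the controls at 48 hours, and at 4 weeks 1 transgenic pool lay above both controls and the other between them.

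Col6a1, a chain of the beaded-filament collagen VI (chr10:76708792-76726044), gave 903 and 2375.5 in the control pools at 48 hours, 2002 and 2531 in the transgenic pools, 1384 and 1626 in the control pools at 4 weeks and 2354 and 2097 in the transgenic ones. Its 2 pools were close together in 3 groups, and the transgenic pools were the higher ones at 4 weeks without overlap. Postn, which encodes periostin, a matricellular protein that binds collagen and integrins (chr3:54359267-54391041), gave 6183 and 18476, 12852 and 12545, 8155 and 8361, and 14325 and 11757. The control pools at 4 weeks agreed closely, at 8258 ± 145 (SD, n = 2), and lay below both transgenic pools of that time, at 13041 ± 1816. Sparc, which encodes osteonectin, a collagen-binding matricellular protein that endothelial cells and pericytes also make (chr11:55394159-55420080), gave 2294 and 5808, 4101 and 8445, 3532 and 2519, and 4668 and 5538. Its transgenic pools at 48 hours stood apart from each other, and at 4 weeks the transgenic pools lay above the controls.

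Dcn encodes decorin, a proteoglycan of collagen fibrils (chr10:97479500-97518163), and gave 12024 and 21569.6 in the control pools at 48 hours, 23418 and 20142 in the transgenic pools, 31116 and 27749 in the control pools at 4 weeks and 28819.7 and 22479 in the transgenic ones. The control pools at 4 weeks, at 29432 ± 2381 (SD, n = 2), lay above the control pools at 48 hours, at 16797 ± 6750.04. Lum, the neighbouring gene for lumican (chr10:97565501-97572703), gave 1383 and 3992, 4049 and 3374, 3703 and 1668, and 4551.5 and 4828. Its transgenic pools at 4 weeks differed by less than those of any other group, at 4689.85 ± 196 (SD, n = 2), and lay above both controls. Dcn and Lum are separated by 47337 bases with 0 other genes starting between them, and their r over the 8 arrays was 0.53, or −0.23 on the 7 arrays without control 48 hours pool 1. Dpt, which encodes dermatopontin, a small matrix protein that binds decorin (chr1:164796663-164824274), gave 1509.8 and 1755, 2981 and 2257, 2985 and 2213, and 3728 and 1544. The control pools at 48 hours were both low, at 1632 ± 173 (SD, n = 2), and the widest gap between pools was in the transgenic group at 4 weeks.

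Pdgfra encodes the receptor for platelet-derived growth factor that marks fibroblasts at the cell surface (chr5:75151322-75198206). It gave 583 and 1566 in the control pools at 48 hours, 1323 and 1332 in the transgenic pools, 1556 and 1323 in the control pools at 4 weeks and 1811 and 1188 in the transgenic ones. Outside control 48 hours pool 1 its signal lay between 1188 and 1811, and genotypes overlapped at both times.

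The gap between the 2 control pools at 48 hours was the largest feature of these genes. Pool 2 was above pool 1 for 10 of 10 genes, against 52.3% of all genes tested, and the median ratio was 2.55-fold. The gap exceeded 1 on the log2 scale, in the direction of pool 2, for 8 of 10 genes against 7.06% of all genes. The ratio was 2.99-fold for Postn, 2.89-fold for Lum and 2.69-fold for Pdgfra, and 2.48-fold to 2.63-fold for Col1a1, Col1a2, Col3a1, Col6a1 and Sparc. The exceptions were Dcn, with 1.79-fold, and Dpt, with 1.16-fold. In the other 3 groups the median log2 difference with its sign, in which opposite gaps cancel, corresponded to 1.09-fold to 1.26-fold. Without sign, the median log2 gap was 0.27 in the transgenic pools at 48 hours. It was 0.33 in the control and 0.32 in the transgenic pools at 4 weeks, against 1.35 in the control pools at 48 hours. In each of the other 3 groups 1 gene had a gap above 1 on the log2 scale. These were Sparc, higher in pool 2 of the transgenic group at 48 hours (6.7% of all genes), Lum, higher in pool 1 of the control group at 4 weeks (7.12%), and Dpt, higher in pool 1 of the transgenic group at 4 weeks (7.26%). Within groups, the median SD of the 10 genes on the log2 scale was 0.70 in control and 0.25 in transgenic pools, against 0.36 and 0.30 over all genes tested.

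**Figure D2:**
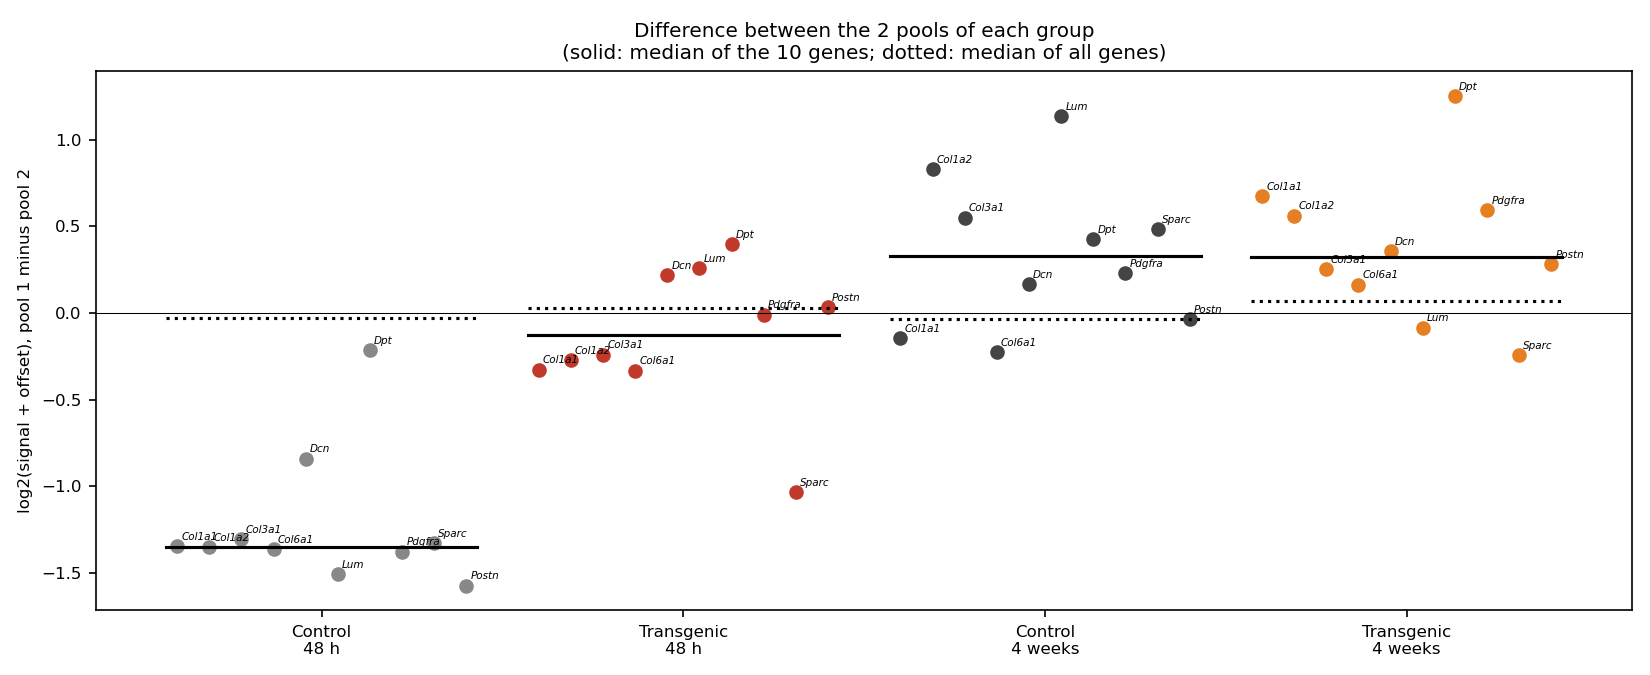
Difference in log2(signal + 30.8) between the 2 pools of each group (y axis, pool 1 minus pool 2) for each of the 10 genes, with a solid line at their median and a dotted line at the median of all genes. In the control 48 hours group all 10 points lie below 0 with a median of −1.35, whereas the medians of the other groups are −0.12, 0.33 and 0.32.

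Fitted over all 4 groups, pool 1 was below pool 2 for 9 of the 10 genes, against 48.1% of all genes, with a median log2 difference of −0.16, and 0 of 10 passed an adjusted p of 0.05 in limma (Benjamini-Hochberg, as for all adjusted values here), where 0.0153% of genes did. When either control pool of 48 hours was left out the median was 0.22, with 8 of 10 genes above 0. In the arrays of 48 hours alone the median was −0.77, and in those of 4 weeks alone it was 0.33.

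At 48 hours the comparison of genotypes asks whether stromal RNA in the sorted fraction differed soon after receptor activation. The log2 difference, transgenic minus control, was above 0 for 10 of 10 genes, against 53.9% of all genes tested, but 0 of 10 passed the test, as did 0% of all genes (an unadjusted p under 0.05 was reached by 2.06% of all genes as higher, by 2.00% as lower and by 0 of the 10). The median of the 10 was 0.44, against 0.04 over all genes. The values ran from 0.25 (SE 0.39) for Postn to 0.68 (SE 0.44) for Sparc, with adjusted p-values of 0.977 to 0.982 in limma. Dpt, at 0.66 (SE 0.37, 95% interval −0.17 to 1.49), was the 1 gene of 10 whose transgenic pools both lay above both control pools, a pattern that 18.9% of all genes had.

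Control 48 hours pool 1 set the direction of 7 of the 10 genes. Without it the median was −0.17 and 3 of 10 genes remained above 0, namely Dcn, Dpt and Sparc. Without control 48 hours pool 2 the median was 1.02, and 9 of 10 genes had an unadjusted p under 0.05, all as higher, with a smallest adjusted p of 0.436 in limma. Of all 13083 genes in that fit, 608 had an unadjusted p under 0.05 as higher and 321 as lower. The difference was 0.46 to 0.86 for Dpt and 0.01 to 0.85 for Dcn over the fits that each left out 1 pool.

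At 4 weeks the same comparison gave a log2 difference above 0 for 8 of 10 genes, against 48.0% of all genes, with a median of 0.45, against −0.02 over all genes. Again 0 of 10 passed the test, as did 0% of all genes, and adjusted p-values in limma were 0.98 to 0.997. Both transgenic pools lay above both control pools for 5 of 10 genes, a pattern of 14.7% of all genes. These were Lum at 0.91 (SE 0.47, unadjusted p = 0.0802, adjusted p = 0.98 in limma), Sparc at 0.76 (SE 0.44), Postn at 0.65 (SE 0.39), Col6a1 at 0.56 (SE 0.38) and Col3a1 at 0.48 (SE 0.36). Col1a2 was at 0.42 (SE 0.41), Col1a1 at 0.34 (SE 0.41) and Pdgfra at 0.03 (SE 0.41), with overlapping pools. The 2 genes below 0, against 52.0% of all genes, were Dcn at −0.21 (SE 0.26) and Dpt at −0.10 (SE 0.37).

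Control 4 weeks pool 2 had the high actin ratio of 37.0. Without it the median at 4 weeks was 0.27 with 7 of 10 genes above 0, and without control 4 weeks pool 1 it was 0.54 with 9 of 10. Without transgenic 4 weeks pool 1 the median was 0.24 with 7 of 10 above 0, and without transgenic 4 weeks pool 2, the array whose description names non-transgenic mice, it was 0.64 with 9 of 10. For the 5 genes without overlap the sign cannot turn when 1 pool is left out, and the size of the difference then ran from 0.34 to 1.47 for Lum, 0.52 to 1.00 for Sparc, 0.51 to 0.79 for Postn, 0.44 to 0.67 for Col6a1 and 0.20 to 0.75 for Col3a1. When the actin ratio entered the fit as a covariate, the median was 0.39 at 4 weeks and 0.42 at 48 hours.

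**Figure D3:**
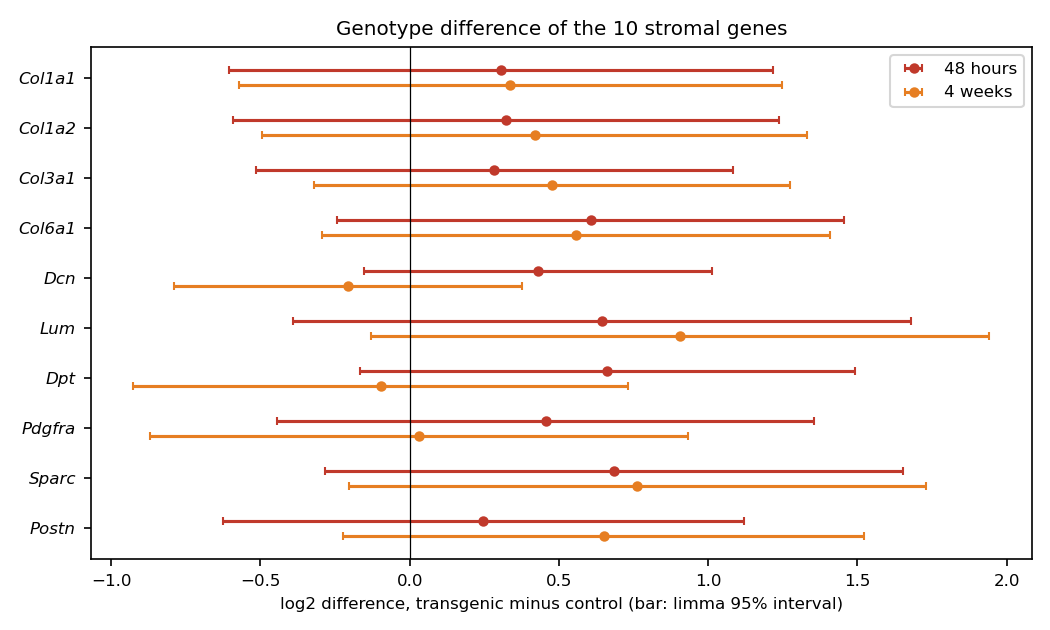
Log2 difference between transgenic and control pools (x axis) of the 10 genes at 48 hours (red) and at 4 weeks (orange), from limma with 95% intervals as bars. Every interval includes 0, all 10 points at 48 hours lie above 0, and Dcn and Dpt lie below 0 at 4 weeks.

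The size of the genotype difference was not shown to change between the times. The difference at 4 weeks minus that at 48 hours was above 0 for 6 and below 0 for 4 of the 10 genes, against 45.7% and 54.3% of all genes, with a median of 0.06, and 0 of 10 passed the test (smallest unadjusted p = 0.116, all adjusted p-values 0.989 or above in limma). This median was 0.72 without control 48 hours pool 1 and −0.61 without control 48 hours pool 2.

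Over both times, with time as a covariate, the log2 difference was above 0 for 10 of 10 genes, against 50.8% of all genes, with a median of 0.38. An unadjusted p under 0.05 was reached by 3 of 10 genes, against 2.09% of all genes in that direction. Lum was at 0.77 (SE 0.32, unadjusted p = 0.0316, adjusted p = 0.958 in limma). Sparc was at 0.72 (SE 0.29, unadjusted p = 0.0307, adjusted p = 0.958 in limma). Col6a1 was at 0.58 (SE 0.26, unadjusted p = 0.0447, adjusted p = 0.958 in limma). After adjustment in limma 0 of 10 passed, with adjusted p-values of 0.958 to 0.974, and 0% of all genes passed. Without control 48 hours pool 1 the median was 0.15, 8 of 10 genes were above 0 and 0 had an unadjusted p under 0.05. Without control 48 hours pool 2 the median was 0.66 and 7 had one, against 362 of all 13083 genes as higher in that fit. The 4 transgenic pools all lay above the 4 control pools for 0 of the 10, against 1.48% of all genes.

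In the control pools the comparison of 4 weeks with 48 hours gave values of both signs, in shares near those of all genes. The log2 difference was above 0 for 5 and below 0 for 5 of the 10 genes, against 55.0% and 45.0% of all genes, with a median of −0.11. In limma 0 of the 10 passed the test, as did 0.00764% of all genes, which is 1 gene. Dcn had the largest value, 0.87 (SE 0.26, 95% interval 0.28 to 1.45, unadjusted p = 0.00781, adjusted p = 0.628 in limma), and its 4 weeks pools both lay above its 48 hours pools. Dpt at 0.65 (SE 0.37) was the other gene without overlap, against 18.0% of all genes. Pdgfra was at 0.57 (SE 0.41), Lum at 0.08 (SE 0.47) and Col6a1 at 0.03 (SE 0.38).

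The 5 values below 0 were those of the fibril collagens and both matricellular genes, and each had a 95% interval that included 0. Col1a1 was at −0.51 (SE 0.41), Postn at −0.37 (SE 0.39), Sparc at −0.29 (SE 0.44), Col3a1 at −0.27 (SE 0.36) and Col1a2 at −0.24 (SE 0.41). Without control 48 hours pool 1 the median of the 10 was −0.80, with 2 genes above 0, and without control 48 hours pool 2 it was 0.57, with 10 of 10 above 0. For Dcn and Dpt, whose pools did not overlap, the sign cannot turn when 1 pool is left out, and the value then ran from 0.45 to 1.29 for Dcn and from 0.44 to 0.86 for Dpt. In the transgenic pools the same comparison gave 4 genes above 0 and 6 below, against 48.4% and 51.6% of all genes. The median there was −0.05, single values ran from −0.48 to 0.34, and 0 of 10 passed the test, as did 0% of all genes. Without transgenic 4 weeks pool 2 this median was 0.15, and without transgenic 48 hours pool 2 it was 0.08.

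A gene's level relative to the other 9 on the same array takes out what the 10 genes have in common on that array. For Dcn this relative log2 value was −0.07 and −0.49 in the control pools at 48 hours, −0.12 and −0.51 in the transgenic pools at 48 hours, 0.53 and 0.72 in the control pools at 4 weeks, and −0.04 and −0.02 in the transgenic pools at 4 weeks. All 4 arrays of 4 weeks lay above all 4 of 48 hours, although the nearest values of the 2 times, −0.04 and −0.07, were close together. Col1a1 had the opposite order, with 0.30, 0.44, 0.08 and 0.30 on the arrays of 48 hours and −0.52, 0.01, −0.14 and −0.47 on those of 4 weeks. The means of the 2 times were −0.30 and 0.30 for Dcn, and 0.28 and −0.28 for Col1a1. For the remaining 8 genes the times overlapped. These values were not tested, since they were looked at after the signals were known. No share over all genes was taken for this order, so it has no background to be read against. Each value is relative to the other 9 genes, so a higher Dcn lowers the relative values of the rest, Col1a1 included.

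**Figure D4:**
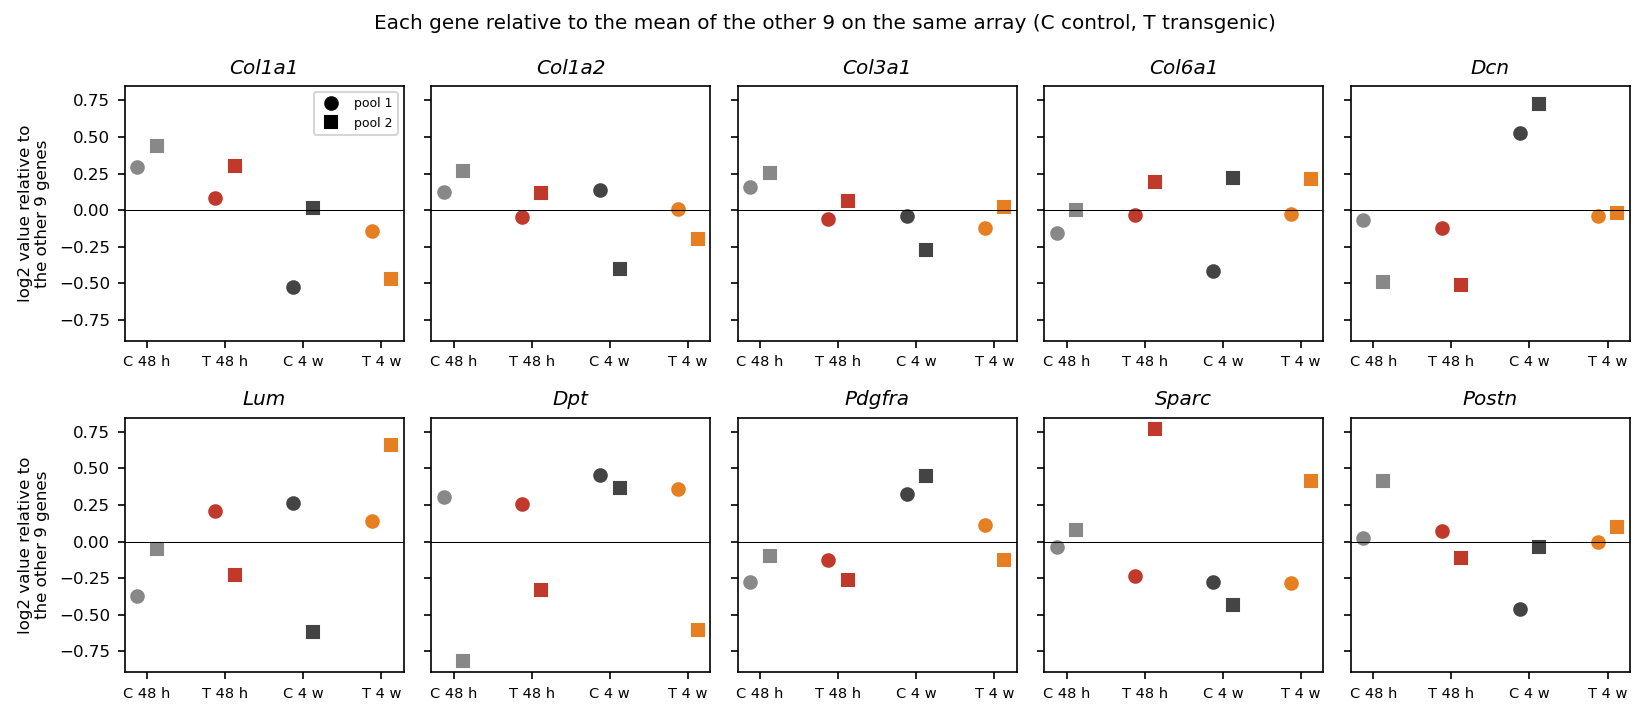
Log2 value of each gene relative to the mean of the other 9 genes on the same array (y axis, centred on 0 over the 8 arrays) in the 4 groups (x axis), with circles for pool 1 and squares for pool 2. Dcn is higher and Col1a1 lower on all 4 arrays of 4 weeks than on all 4 arrays of 48 hours, and Sparc is at 0.77 on transgenic 48 hours pool 2.

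Sparc stood out on 2 arrays, with a relative value of 0.77 on transgenic 48 hours pool 2 and 0.41 on transgenic 4 weeks pool 2. On the first of these, genes of blood vessels were also high. Rgs5, a marker of pericytes, had a signal of 971 in pool 1 and 6281 in pool 2 of that group. Cldn5, a tight-junction gene of endothelium, had 376 and 1961, and Col4a1, a chain of basement-membrane collagen, 3179 and 8889.6. On transgenic 48 hours pool 2 the median gene of the endothelial list was 1.04 above its mean over the arrays, that of the pericyte list 0.78, and that of the 10 stromal genes 0.27. On transgenic 4 weeks pool 2 the endothelial list was at −0.01 and the pericyte list at 0.19. On control 4 weeks pool 2 these lists were at 0.24 and 0.64, while the relative value of Sparc was −0.43. The part of vessel RNA in the Sparc signal was not tested.

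Most of the 10 genes varied together over the 8 arrays. Over the 45 pairs, Pearson's r ran from 0.06 for Dpt with Sparc to 0.98 for Col1a2 with Col3a1, with a median of 0.72 and 31 pairs above 0.5. The arrays share one scaling target and one amplification protocol, and the low values on control 48 hours pool 1 enter every pair. On the 7 arrays without it the median was 0.50, the range −0.77 to 0.97, and 23 pairs were above 0.5. The correlation of a gene with the mean of the other 9 was 0.93 for Col3a1, 0.91 for Col1a2, 0.90 for Col6a1 and 0.88 for Postn, 0.73 to 0.83 for Pdgfra, Lum, Sparc and Col1a1, and 0.50 for Dcn and 0.40 for Dpt. Over all 8 arrays the proteoglycan Dcn and the matrix protein Dpt had the 2 lowest values. Within groups, after each group's mean was taken out, r was 0.93 for Dcn and 0.36 for Dpt, and 0.72 to 0.98 for the other 8 genes.

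The 250 bases before the start are shown for these 4 most alike genes and for Dpt, with the lowest r. These bases lie upstream of the genes, and their part in the shared pattern was not tested. They come from RefSeq on GRCm38.p6, where 7 of the 10 genes had an entry, and are written 5′ to 3′ on the strand of the gene. Capitals mark matches, on either strand and without overlap between motifs, to the CCAAT box, to TATAAA, the letters of a TATA box, to GGGCGG, the core of a GC box, and to the AP-1 pattern TGANTCA. Of 32851 mouse promoters of the same length, 33.8% held CCAAT, 12.4% TATAAA, 32.7% GGGCGG and 6.75% TGANTCA.
Col3a1, chr1:45311288-45311537, plus strand: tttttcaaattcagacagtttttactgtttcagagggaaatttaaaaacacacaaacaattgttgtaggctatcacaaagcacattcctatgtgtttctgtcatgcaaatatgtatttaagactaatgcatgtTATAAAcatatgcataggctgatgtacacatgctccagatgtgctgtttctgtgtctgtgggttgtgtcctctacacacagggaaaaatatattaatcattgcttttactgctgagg
Col1a2, chr6:4505368-4505617, plus strand: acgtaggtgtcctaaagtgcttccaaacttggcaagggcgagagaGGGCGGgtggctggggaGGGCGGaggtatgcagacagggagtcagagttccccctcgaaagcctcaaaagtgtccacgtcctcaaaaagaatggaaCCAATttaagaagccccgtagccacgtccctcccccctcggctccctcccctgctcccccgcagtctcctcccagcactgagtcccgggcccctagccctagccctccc
Col6a1, chr10:76726045-76726294, minus strand: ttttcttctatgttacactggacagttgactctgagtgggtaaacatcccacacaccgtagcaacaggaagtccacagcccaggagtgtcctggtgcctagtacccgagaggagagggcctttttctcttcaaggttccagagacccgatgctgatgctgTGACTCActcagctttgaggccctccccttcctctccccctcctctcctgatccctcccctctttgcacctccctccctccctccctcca
Postn, first start, chr3:54359017-54359266, plus strand: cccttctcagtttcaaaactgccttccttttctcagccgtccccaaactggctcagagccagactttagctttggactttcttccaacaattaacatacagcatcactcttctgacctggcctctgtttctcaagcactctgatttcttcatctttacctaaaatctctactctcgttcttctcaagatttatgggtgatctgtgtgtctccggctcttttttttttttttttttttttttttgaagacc
Postn, second start, chr3:54360857-54361106, plus strand: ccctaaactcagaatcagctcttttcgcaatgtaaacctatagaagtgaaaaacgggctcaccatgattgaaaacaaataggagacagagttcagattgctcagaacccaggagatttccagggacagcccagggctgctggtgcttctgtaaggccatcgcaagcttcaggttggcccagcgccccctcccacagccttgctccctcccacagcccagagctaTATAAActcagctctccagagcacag
Dpt, chr1:164796413-164796662, plus strand: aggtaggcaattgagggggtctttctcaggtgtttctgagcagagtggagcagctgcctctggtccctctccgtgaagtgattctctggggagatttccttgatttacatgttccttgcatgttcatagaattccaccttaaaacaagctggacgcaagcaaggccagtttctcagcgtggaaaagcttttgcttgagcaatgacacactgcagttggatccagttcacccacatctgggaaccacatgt

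The 2 genes with the closest patterns, Col3a1 and Col1a2, shared none of the 4 motifs in these windows. Col1a2 held CCAAT 109 bases before its start and GGGCGG 205 and 188 bases before it, with 62.0% G and C. Col3a1 held TATAAA 117 bases before its start, with 35.2% G and C. Col6a1 held TGANTCA 90 bases before its start, and the second start of Postn held TATAAA 26 bases before it. Dpt and the first start of Postn held none of the 4. A match is a description of letters and not a site of binding.

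Among all other genes tested, 57 of 13073 (0.436%) had a Pearson's r above 0.9 with the mean of the 10 over the 8 arrays. The 10 genes with the highest values were Polr3f with 0.98, Ddx50 with 0.98, Itm2a with 0.97, Umps with 0.96, Tmem263, Dnajc10, Klhl11 and Col5a2 with 0.95 to 0.96, and Selenoo and Mest with 0.95. Col5a2, a chain of the type V collagen that co-assembles with type I, was the 1 matrix gene among them. Its signal was 2649.8 on control 48 hours pool 1 and 7960.4 on pool 2. Without control 48 hours pool 1 and control 4 weeks pool 2, the arrays farthest from the median of the mean of the 10, the r of Col5a2 was 0.77 and those of the other 9 were 0.63 to 0.94. On these arrays, whose medians were 126.9 and 122.1, some of the 10 were dim. Polr3f was at 10.5 and 39.4 there, and Selenoo at 18.3 and 27.1. Mest was at 49.5 on control 48 hours pool 1.

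Where a gene had a second probe set above the array median, the sets could be compared. The r between the used and the second probe set was 0.98 for Col3a1, 0.96 for Sparc, 0.91 for Col1a2, 0.64 for Col1a1 and 0.62 for Pdgfra. For Col1a1, Col1a2, Col3a1 and Sparc the second set was lowest on control 4 weeks pool 2, whose actin ratio was 37.0, and that of Pdgfra on transgenic 48 hours pool 2, so none of the 5 was lowest on control 48 hours pool 1. Sparc had a further, dimmer set whose r with the used one was −0.68 and which was highest on control 48 hours pool 1. Over these 5 genes the median genotype difference was 0.37 with the second set and 0.32 with the used set at 48 hours, and 0.72 and 0.42 at 4 weeks. The part of RNA shortening in these differences was not tested.

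Genes that work with the 10 were read from 4 further lists. Of all genes tested, 53.9% had a log2 difference above 0 at 48 hours and 48.0% at 4 weeks. Control 48 hours pool 1 enters every difference at 48 hours, and the lists were not refitted without it. Of 13 other collagen chains tested, 12 had a log2 difference above 0 at 48 hours and 11 at 4 weeks, with medians of 0.39 at both times, and 0 of 13 passed the test in either direction. Col6a2, the partner chain of Col6a1 in the collagen VI monomer, was at 0.49 (SE 0.41) at 48 hours and 0.88 (SE 0.41) at 4 weeks. Col5a2 was at 0.32 (SE 0.41) and 0.34 (SE 0.41). Col4a1 was at 0.62 (SE 0.48) and 0.19 (SE 0.48).

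Of 20 listed enzymes and chaperones of collagen processing 16 were tested, of which 12 were above 0 at 48 hours with a median of 0.40, and 9 at 4 weeks with a median of 0.03, and 0 passed. The 3 with the highest mean signal, which are active in the secretory pathway of most cells, varied less than the collagens. Ppib, a proline isomerase of the endoplasmic reticulum, gave 27736 to 33337 over the 8 arrays, P4hb, the beta subunit of prolyl 4-hydroxylase, 9044.9 to 14362, and Colgalt1, which adds galactose to collagen, 2164.5 to 2946.5.

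Of 18 listed proteoglycans and microfibril genes 15 were tested. At each time 10 of these were above 0, with medians of 0.29 at 48 hours and 0.37 at 4 weeks, and 0 passed. Efemp1, a fibulin, was at 0.86 (SE 0.50) at 48 hours and 0.15 (SE 0.50) at 4 weeks, and Ogn, a small leucine-rich proteoglycan, at 0.90 (SE 0.58) and −0.03 (SE 0.58). Bgn, which encodes biglycan, the closest relative of decorin, was at 0.34 (SE 0.42) and 0.97 (SE 0.42). Of 18 fibroblast receptors and regulators, 13 were above 0 at 48 hours with a median of 0.18, and 12 at 4 weeks with a median of 0.12, and 0 passed. Fstl1, a secreted glycoprotein of mesenchymal cells, was at 0.77 (SE 0.47) and 0.14 (SE 0.47), Serpinf1, a secreted serpin, at 0.52 (SE 0.25) and −0.05 (SE 0.25), and Igfbp4, a binding protein of insulin-like growth factors, at 0.15 (SE 0.17) and 0.01 (SE 0.17).

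The low standing of control 48 hours pool 1 ran through these lists. Relative to its mean over the 8 arrays, the median gene on that array was at −0.85 among the 10 stromal genes, −0.67 among the other collagens, −0.41 among the proteoglycans and microfibril genes, −0.41 among the fibroblast receptors and regulators and −0.26 among the processing genes. The macrophage list was at 0.01 on that array. On control 48 hours pool 2 the 10 stromal genes were at 0.41 and the macrophage list at −0.02.

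**Figure D5:**
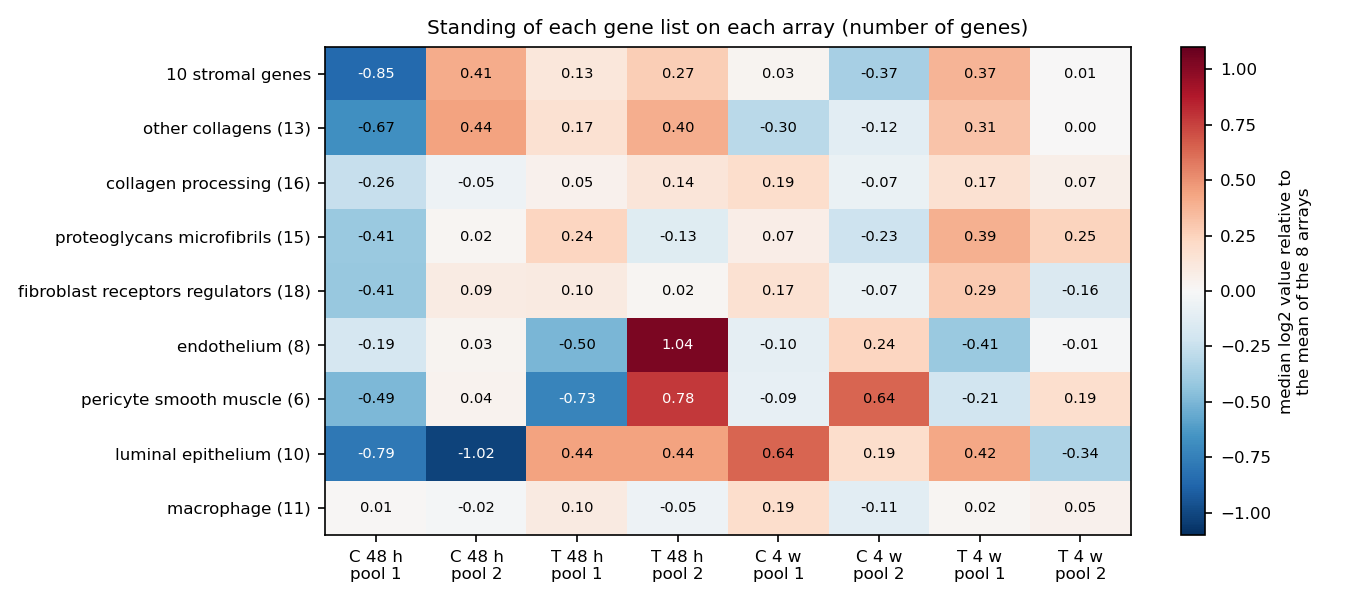
Median log2 value of the tested genes of each list relative to their mean over the 8 arrays (colour and number in each cell), by list (rows) and array (columns, C control and T transgenic). The 10 stromal genes and the other collagens are lowest on control 48 hours pool 1, at −0.85 and −0.67, while luminal epithelium is low on both control 48 hours pools.

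Summed signals put the stromal genes beside other cells of the gland. The 10 genes summed to 47162 and 111562 in the control pools at 48 hours, 90532 and 98202 in the transgenic pools, 69009 to 89002 in the control pools at 4 weeks and 84552 to 106018 in the transgenic ones. Macrophage markers summed to 235468 to 268201, 226582 to 239717, 232238 to 271274 and 235835 to 243214 in the same groups, a narrower range. Luminal epithelial markers summed to 4097 to 4267 in both control pools at 48 hours against 11956 to 12496 in the transgenic ones, and to 9124 to 13937 and 6718 to 11511 at 4 weeks. They did not differ between the control pools of 48 hours in the way the stromal genes did. For the 10 luminal genes tested the median log2 difference at 48 hours was 1.32, with 8 above 0 against 53.9% of all genes. In this list 0 of 10 passed the test, and Krt8, a keratin of luminal cells, was at 2.21 (SE 0.35, adjusted p = 0.539 in limma). The part of epithelial RNA in the values of the stromal genes was not tested.

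Vessel markers were lowest on transgenic 48 hours pool 1 and highest on pool 2 of that group, at sums of 2128 and 6771 for endothelium and 2246 and 9358 for pericytes and smooth muscle. In the control pools at 48 hours they summed to 2611 to 3320 and 2458 to 4393. The median log2 difference between genotypes at 48 hours was 0.43 for pericytes and smooth muscle, with 6 of 6 genes above 0. For endothelium it was 0.30, with 6 of 8 above 0, beside 0.44 for the 10 stromal genes. Of all genes 53.9% were above 0. At 4 weeks the medians of the 2 vessel lists were −0.32 and −0.13, beside 0.45 for the stromal genes, and 0 vessel genes passed at either time. The part of vessel RNA in the stromal values was not tested. Neutrophil markers had log2 differences below 0 in 5 of 5 genes tested at both times, with medians of −1.20 and −1.04, and 0 passed. Of all genes, 46.1% were below 0 at 48 hours and 52.0% at 4 weeks. The medians at 48 hours and 4 weeks were −0.06 and −0.24 for 4 basal epithelial genes, 0.19 and −0.58 for 4 adipocyte genes and −0.13 and −0.21 for 6 lymphocyte genes, and 0 of these passed. Markers at or below the array median on all 8 arrays were Krt17, Trp63 and Cnn1 of basal epithelium, Tie1 of endothelium, Camp of neutrophils, Ncr1 of natural killer cells and Mfap4 of microfibrils.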

How the data were processed

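RNA of Cd11b-PE sorted mammary cells, pooled from 3 mice per array, was amplified in 2 cycles and hybridised to 8 Affymetrix mouse arrays. The authors deposited linear signal intensity values per probe set, made with MAS5 per the submitters' processing notes. Each array had a mean of 500 after its lowest and highest 2% of values were left out. No detection calls were used, and amplification in 2 cycles lowers signals far from the 3' end where RNA is shortened. Precision is limited by the number of arrays.

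The table held 45101 probe sets, of which 34945 matched 1 gene symbol, 932 several and 9160 none, and 64 were controls of the array. Those with 1 symbol were used, and for each gene the probe set with the highest mean signal. Signals were transformed as log2(signal + 30.8), the offset being the 25th percentile of all values, so differences of dim genes are understated. Genes above the array median on at least 2 arrays were kept, which gave 13083. Group means of the 4 groups were fitted with limma 3.58.1 under R 4.3.3 (eBayes with trend), with 4 residual degrees of freedom and a median of 6.24 added by the prior. Two-sided p-values received the Benjamini-Hochberg adjustment over all 13083 genes, with a threshold of 0.05. The fit was tested on simulated data. Plots used matplotlib 3.10.9 in Python 3.11.15.

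The 10 genes, the lists and the tests were chosen with earlier results of these data known. Named beside the 10 were the 3 genes of each list with the highest mean signal, the 10 genes most correlated with the mean of the 10, and checks of the sort. From the lists of other cell types only some were named for length, and Tie1, Camp, Ncr1, Krt17, Trp63, Cnn1 and Mfap4 were named after their values were seen. The alternatives were quantile normalization, centring on the median, other offsets, filters and probe sets, no trend, weights for arrays, a block for the pool number, part of the arrays, the actin ratio as a covariate and leaving out each pool.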

Additional observations from a re-analysis of the deposited data

How the results depend on the processing

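In each of the 7 comparisons 0 of the 10 genes passed an adjusted p of 0.05 in limma under every alternative run, and the number of arrays limits what could pass. Over the fits that each left out 1 pool, the median log2 difference of the 10 ran from −0.17 to 1.02 for genotype at 48 hours, from −0.61 to 0.72 for the change in that difference with time, from −0.80 to 0.57 for time in controls, from −0.13 to 0.15 for time in transgenic pools and from −0.39 to 0.22 for pool 1 minus pool 2. The last was −0.77 in the arrays of 48 hours alone, 0.33 in those of 4 weeks alone and 0.15 in the transgenic arrays alone. Leaving out 1 pool also turned the sign of single genes. At 48 hours the ranges were −0.37 to 0.98 for Col1a1, −0.35 to 1.00 for Col1a2, −0.37 to 0.94 for Col3a1, −0.076 to 1.29 for Col6a1, −0.11 to 1.40 for Lum, −0.23 to 1.15 for Pdgfra and −0.54 to 1.03 for Postn. At 4 weeks they were −0.72 to 0.53 for Dpt and −0.27 to 0.33 for Pdgfra. Over both times they were −0.12 to 0.25 for Dcn and −0.075 to 0.48 for Pdgfra. For time in controls they were −1.18 to 0.16 for Col1a1, −0.92 to 0.43 for Col1a2, −0.93 to 0.38 for Col3a1, −0.65 to 0.71 for Col6a1, −0.68 to 0.83 for Lum, −0.12 to 1.26 for Pdgfra, −0.95 to 0.37 for Sparc and −1.16 to 0.42 for Postn. The second probe set of Col1a1 gave −0.73 at 48 hours and −0.0046 over both times. Col6a1 over time in controls was −0.015 after quantile normalization, −0.023 with arrays centred on the median and −0.065 with the actin covariate. The causes were not tested. The remaining differences of single genes in these 4 comparisons, and the medians for genotype at 4 weeks and over both times, kept their direction under the alternatives run.

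The pool numbers were not taken as pairs, since no label says so and not every pair of groups deviated together: across genes, the correlation of pool 1 minus pool 2 was 0.12 to 0.13 among the 3 groups other than control at 48 hours and −0.08 to 0.02 between that group and the others. With the pool number as a block the medians of the 10 were 0.44 at 48 hours and 0.45 at 4 weeks, 0 of 10 were called, and the smallest adjusted p among them was 0.911 at 48 hours and 0.858 at 4 weeks in limma. Over all genes, the block called 2 genes in place of 0 for genotype at 4 weeks and 4 in place of 1 for time in controls. The block could not be fitted to pool 1 minus pool 2 itself.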
